A study of Homo sapiens with 4 samples.

Results

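The 9 genes described here are transcription factors of the early neuroectoderm (SOX1, SOX3, OTX2, ZIC1, ZIC2, LHX2 and SIX3) and markers of neural progenitor cells (NES and FABP7), all protein-coding. They were taken by gene symbol from the 62696 genes listed in each of 4 count tables, and each symbol matched 1 row. SOX2 and PAX6, which belong to the same biology, were left out of the set and appear only in the comparison lists. The tables are RNA-seq counts from NT2 cells, also named NTERA-2, a human embryonal carcinoma line labelled wild type in the control. The control group was a single library from cells with an empty vector. The other group was 3 libraries labelled HYDIN2 knockdown, replicates 1 to 3. All 4 came from cells grown in the same serum-containing medium, and no differentiation treatment is named in the labels. The labels name neither the knockdown reagent nor separate cultures for the replicates, so the spread between them may be technical. The comparison asked how the 9 genes differed between the libraries labelled knockdown and the empty vector library.

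Neuroectoderm is the layer of the early embryo that forms the brain and spinal cord. SOX1 and SOX3 are HMG-box factors of the SOXB1 group, which keep neural cells in the progenitor state. OTX2 is a homeobox factor of the future forebrain and midbrain, SIX3 a homeobox factor of the most anterior forebrain and eye, and LHX2 a LIM-homeobox factor of the forebrain and eye field. ZIC1 and ZIC2 are zinc finger factors of the neural plate. NES encodes nestin, an intermediate filament protein of neural stem cells, and FABP7 encodes the brain lipid-binding protein of radial glia. Embryonal carcinoma cells are malignant counterparts of pluripotent embryonic cells, and NT2 cells can form neurons when treated with retinoic acid.

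The promoter stretches of the genes on which the results turn are given first, because OTX2, ZIC2 and NES were higher together in every labelled knockdown library and ZIC1 was not. They are the bases just before the RefSeq gene start on GRCh38.p14, written in the direction of the gene. For ZIC2 they stop before the first base that GENCODE 29 annotates as exon. Capitals mark CCAAT boxes (CCAAT, or ATTGG on the other strand) and GC boxes (GGGCGG, or CCGCCC on the other strand), which can overlap one another.
OTX2 (chr14:56810480-56810729, minus strand): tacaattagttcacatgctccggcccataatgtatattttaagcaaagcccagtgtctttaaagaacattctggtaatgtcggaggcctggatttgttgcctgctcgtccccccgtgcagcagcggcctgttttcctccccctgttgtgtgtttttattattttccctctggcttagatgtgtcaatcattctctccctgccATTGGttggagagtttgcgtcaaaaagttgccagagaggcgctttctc
ZIC2 (chr13:99981534-99981771, plus strand): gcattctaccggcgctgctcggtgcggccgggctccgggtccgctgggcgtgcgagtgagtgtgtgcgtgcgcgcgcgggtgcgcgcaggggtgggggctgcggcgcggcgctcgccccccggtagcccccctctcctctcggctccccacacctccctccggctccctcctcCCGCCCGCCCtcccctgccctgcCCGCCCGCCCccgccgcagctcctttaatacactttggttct
NES (chr1:156677408-156677657, minus strand): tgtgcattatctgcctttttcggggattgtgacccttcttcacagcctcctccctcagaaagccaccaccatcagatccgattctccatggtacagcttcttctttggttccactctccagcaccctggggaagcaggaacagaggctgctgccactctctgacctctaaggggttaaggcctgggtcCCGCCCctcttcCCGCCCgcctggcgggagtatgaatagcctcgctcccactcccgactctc
ZIC1 (chr3:147409115-147409364, plus strand): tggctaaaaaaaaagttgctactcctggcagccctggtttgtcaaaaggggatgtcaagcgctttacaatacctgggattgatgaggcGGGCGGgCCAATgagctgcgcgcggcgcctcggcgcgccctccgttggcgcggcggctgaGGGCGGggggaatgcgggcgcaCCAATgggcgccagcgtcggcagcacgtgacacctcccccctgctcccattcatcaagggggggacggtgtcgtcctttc
In these windows ZIC2 had 4 GC boxes and NES had 2, with no CCAAT box in either. OTX2 had 1 CCAAT box and no GC box, and ZIC1 had 2 of each. Of 35116 RefSeq windows of 250 bases before a gene start, 32.01% held a CCAAT box and 42.6% a GC box. A TATA box (TATAAA) was found in 10.7% of windows and the homeodomain sequence TAATCC in 5.62%, and the windows of the 8 matched genes of the set held neither on either strand. Base composition differed among the genes that moved together. The 250 bases before ZIC2 were 75.6% G and C with 31 CpG dinucleotides, those before NES 58.0% with 8, and those before OTX2 47.2% with 7. The median over all windows was 58.0% and 11. OTX2 has a further RefSeq start downstream, and its window held none of the motifs.

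The 4 libraries held 25181737 to 62904698 counts, and the empty vector library was the smallest. Gene coordinates are those of GENCODE 29 on GRCh38. Levels are given as CPM, counts normalised to the library total after scaling by the trimmed mean of M-values (TMM). A difference is the log2 CPM of a labelled knockdown library minus that of the empty vector library, with a prior count of 2. Genes were tested where the mean of the group mean CPMs was at least 1, which 15880 genes passed, and their median difference was -0.02. The count columns are headed LacZ control and GKAP_KIF27 sets, not empty vector and HYDIN2 knockdown, so the control or the target may be other than the labels say. HYDIN2, the target by the labels, stood at 0.50 CPM with the empty vector, against 2.41, 1.88 and 0.352 CPM in labelled knockdown replicates 1, 2 and 3, so its level goes against the labels of replicates 1 and 2. Between labelled knockdown replicates 1 and 2, 0.302% of tested genes stood 2-fold or more apart. From them, replicate 3 stood as far apart in 21.6% and 22.9% of genes, as the empty vector library did in 18.8% and 17.1%. Replicate 3 and the empty vector library were the pair furthest apart, with 27.2% of genes. Markers of the labelled cell type were abundant in all libraries (LIN28A had at least 1912 CPM, DPPA4 at least 604 CPM and SOX2 at least 259 CPM), while ZFP42, a pluripotency marker, had only 2 to 4 counts.

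ZIC2 and NES were the most abundant of the 9 genes, and SOX1, SIX3, FABP7 and ZIC1 were close to the detection limit. Per kilobase of the longest GENCODE transcript, the mean level over the 4 libraries was 78.2 CPM per kb for ZIC2, 45.1 for NES, 20.7 for OTX2, 11.6 for SOX3 and 4.26 for LHX2. ZIC1 followed at 0.283 CPM per kb, FABP7 at 0.182, SIX3 at 0.0896 and SOX1 at 0.0663. ZIC2 lay above NES, and NES above OTX2, in each of the 4 libraries. OTX2 also lay above SOX3 in each library, although their ranges over the 4 libraries (12.5 to 24.4 and 9.73 to 13.6 CPM per kb) overlapped, and the order of the lowest 4 genes changed from library to library. In total CPM, NES and ZIC2 ranked at percentiles 94.7 and 94.0 of 13362 tested protein-coding genes, OTX2 at 71.3, SOX3 at 48.3, LHX2 at 27.3 and ZIC1 at 1.12. Of the 9 genes, 6 passed the minimum of 1 CPM. ZIC1 passed it only through labelled knockdown replicates 1 and 2, where it was high, so its passing is tied to its difference.

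**Figure D1:**
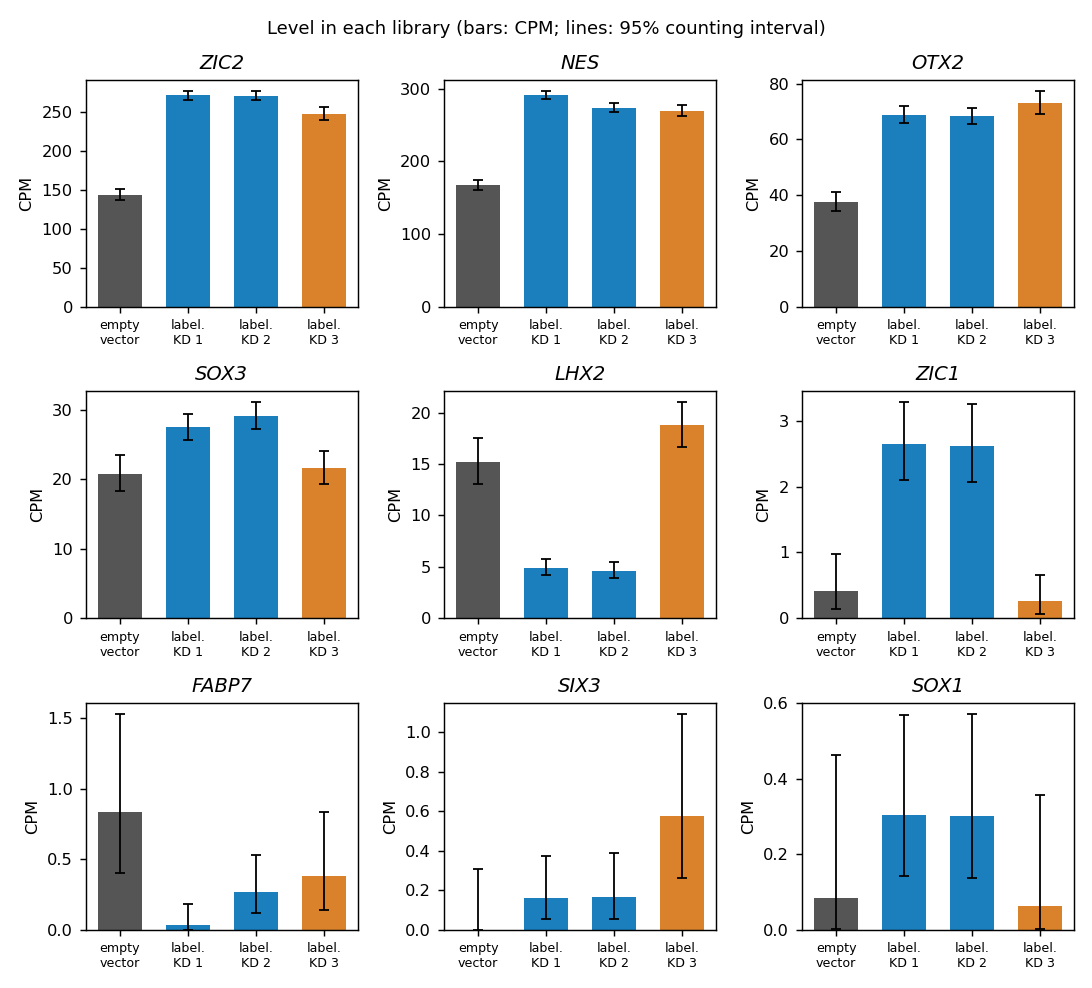
Level of each of the 9 genes in CPM (y axis, from 0) in the empty vector library and labelled knockdown (KD) replicates 1, 2 and 3 (x axis). Bars are CPM and lines are exact Poisson 95% intervals for counting error. ZIC2, NES and OTX2 are higher in all 3 labelled knockdown libraries, while ZIC1 and LHX2 in replicate 3 stand near the empty vector library.

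OTX2, ZIC2 and NES were higher in each of the 3 labelled knockdown libraries by 1.61 to 1.95 times. The level of OTX2 (ENSG00000165588.19, chr14:56799905-56810479, minus strand) was 37.6 CPM with the empty vector, and labelled knockdown replicates 1, 2 and 3 gave 68.9, 68.3 and 73.1 CPM. Relative to the control these were ratios of 1.83 (95% counting interval 1.65 to 2.03), 1.82 (1.64 to 2.02) and 1.95 (1.74 to 2.18). The 3 labelled knockdown libraries were alike for OTX2, and none of their intervals against one another excluded 1. Its mean log2 difference of 0.90 ± 0.05 (SD, n = 3) exceeded its spread.

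ZIC2 (ENSG00000043355.12, chr13:99981772-99986773, plus strand), the neural plate zinc finger factor, stood at 144 CPM with the empty vector, and replicates 1, 2 and 3 gave 271, 271 and 248 CPM. Its ratios were 1.89 (1.80 to 1.99), 1.89 (1.79 to 1.99) and 1.73 (1.63 to 1.83), with a mean log2 difference of 0.87 ± 0.07 (SD, n = 3). Replicate 3 was slightly below the other labelled knockdown libraries, at 0.913 times replicate 1 (0.879 to 0.948). NES (ENSG00000132688.11, chr1:156668763-156677397, minus strand), the nestin gene, stood at 167 CPM with the empty vector, and replicates 1, 2 and 3 gave 291, 274 and 270 CPM. NES ratios were 1.74 (1.66 to 1.83), 1.64 (1.56 to 1.72) and 1.61 (1.53 to 1.70), with a mean log2 difference of 0.73 ± 0.06 (SD, n = 3). For all 3 genes the groups did not overlap. With SOX3, 4 of the 6 tested genes lay above the control in every replicate, as did 30.1% of all tested genes, and 0 lay below it in every replicate, as did 34.2%. In bulk RNA, more cells that express a gene and more RNA per cell cannot be told apart.

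None of the 6 tested genes was 2-fold or more above the control in every replicate, against 3.65% of all tested genes, and none was 2-fold below, against 2.72%. At 1.5-fold in each library the count was 3 of 6 higher (OTX2, ZIC2 and NES), against 10.0% of all tested genes, and 0 lower, against 9.61%. After lowess trends with transcript length and GC were removed, the log2 differences in replicates 1, 2 and 3 were 0.90, 0.85 and 1.25 for OTX2 and 1.08, 1.06 and 1.12 for ZIC2, which then passed 2-fold in every replicate. Those of NES were 0.67, 0.62 and 0.55, so that in replicate 3 NES came just under the 1.5-fold mark of 0.58.

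**Figure D2:**
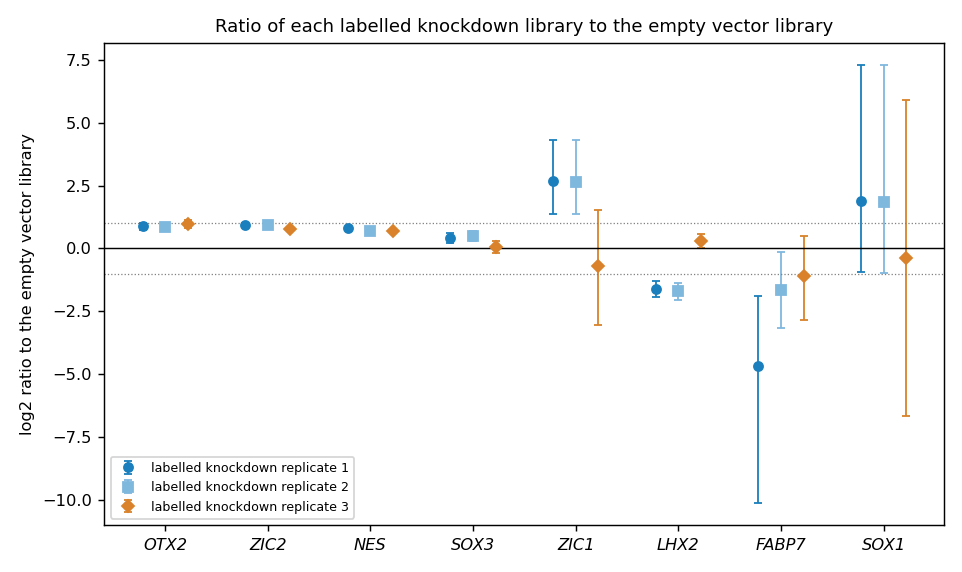
Ratio of each labelled knockdown library to the empty vector library on a log2 axis (y) for 8 of the 9 genes (x). Points are ratios of CPM, lines are exact binomial 95% intervals for counting error and dotted lines mark 2-fold; SIX3, with 0 counts in the empty vector library, is not drawn. OTX2, ZIC2 and NES lie close together above 0 in all 3 libraries, whereas ZIC1 and LHX2 differ between replicate 3 and the others.

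ZIC1 and LHX2 differed from the empty vector library in labelled knockdown replicates 1 and 2 but not in the same way in replicate 3. ZIC1 (ENSG00000152977.10, chr3:147393422-147510293, plus strand) had 10 counts with the empty vector, against 165, 156 and 8 in replicates 1, 2 and 3. These were 0.417, 2.65, 2.61 and 0.256 CPM. ZIC1 was thus 6.36 times (2.62 to 20.1) and 6.27 times (2.58 to 19.9) as high in replicates 1 and 2, while the interval for replicate 3 included 1 (ratio 0.615, from 0.122 to 2.86). Replicate 3 had 0.0966 times the ZIC1 level of replicate 1 (0.0257 to 0.257). The log2 differences of ZIC1 averaged 1.48 ± 1.82 (SD, n = 3), a mean within the spread, and without replicate 3 their mean was 2.54.

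LHX2 (ENSG00000106689.11, chr9:124001670-124033301, plus strand), the forebrain LIM-homeobox factor, went the other way. It stood at 15.2 CPM with the empty vector, 4.91 and 4.64 CPM in labelled knockdown replicates 1 and 2, and 18.8 CPM in replicate 3. Against the control the ratios were 0.323 (0.259 to 0.403), 0.305 (0.243 to 0.383) and 1.23 (1.02 to 1.49), and replicate 3 stood 3.82 times above replicate 1 (3.13 to 4.67). The groups overlapped, and the log2 differences averaged -1.01 ± 1.13 (SD, n = 3), again within the spread. Without replicate 3 their mean was -1.66. LHX2 was the only one of the 6 tested genes that lay at least 2-fold lower in replicates 1 and 2, as 5.5% of tested genes did, and ZIC1 the only one that lay at least 2-fold higher there, as 9.54% did. Replicates 1 and 2 gave nearly the same values for both genes.

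SOX3 (ENSG00000134595.9, chrX:140502985-140505116, minus strand), the SOXB1 factor, differed less. Its level was 20.7 CPM with the empty vector, and replicates 1, 2 and 3 gave 27.5, 29.1 and 21.6 CPM. The ratios were 1.33 (1.15 to 1.53), 1.40 (1.22 to 1.62) and 1.04 (0.882 to 1.23), so replicate 3 was not distinguishable from the empty vector library. Its log2 differences averaged 0.32 ± 0.23 (SD, n = 3). Removal of the length and GC trends moved the mean to 0.73, with 0.75, 0.79 and 0.63 in the 3 replicates.

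**Figure D3:**
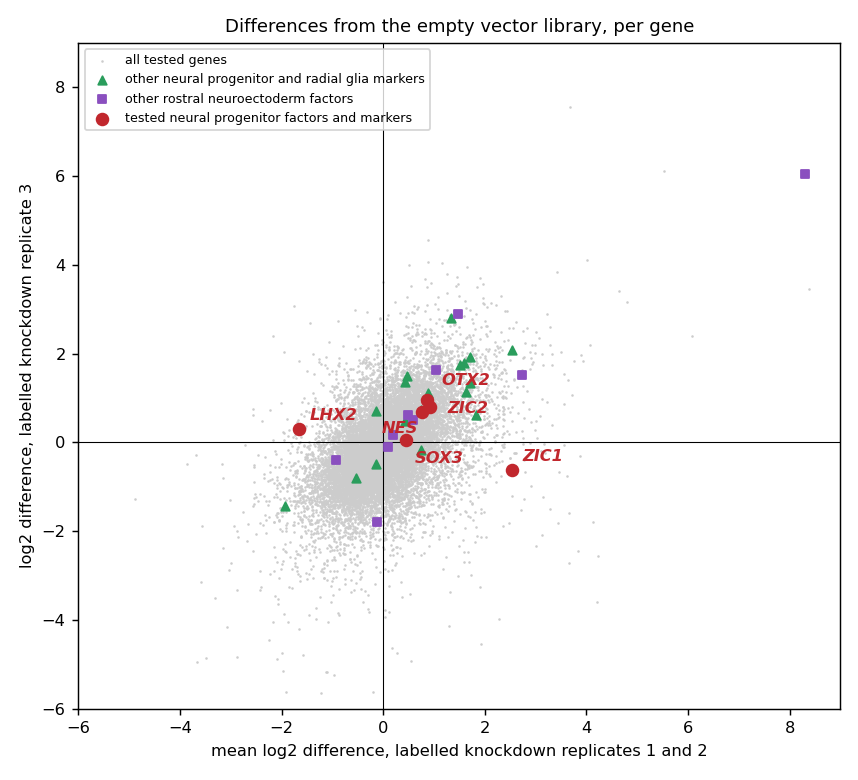
Each point is a gene: the x axis is its log2 difference from the control averaged over labelled knockdown replicates 1 and 2, and the y axis its log2 difference in replicate 3. The 6 tested genes of the set are red, 2 comparison lists are coloured and all 15880 tested genes are grey. OTX2, ZIC2 and NES lie in the upper right, ZIC1 far to the right below 0 and LHX2 to the left above 0.

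SOX1, SIX3 and FABP7 did not reach 1 CPM, and their counts allow little. SOX1 (ENSG00000182968.5, chr13:112067647-112070488, plus strand) had 2 counts with the empty vector, against 19, 18 and 2 in replicates 1, 2 and 3. Its ratios of 3.66 (0.515 to 160), 3.62 (0.501 to 159) and 0.768 (0.00979 to 60.3) all had intervals that included 1. The order of the libraries was that of ZIC1, but a difference in SOX1 was not detectable at this depth. SIX3 (ENSG00000138083.5, chr2:44941898-44946077, plus strand) had 0 counts with the empty vector, which allows up to 0.125 CPM at the floor of 3 counts per library, and 10, 10 and 18 counts in the replicates. Against that floor SIX3 was at least 4.61-fold higher in replicate 3 and at least 1.29-fold and 1.34-fold higher in replicates 1 and 2. The exact interval allowing for counting error in both libraries had a lower end of 1.52 for replicate 3 and ends below 1 for the others (0.353 and 0.368). FABP7 (ENSG00000164434.12, chr6:122779475-122784074, plus strand), the radial glia lipid carrier, went from 20 counts with the empty vector to 2, 16 and 12 in replicates 1, 2 and 3, although those libraries are larger. Its ratios were 0.0386 (0.000888 to 0.271), 0.322 (0.110 to 0.905) and 0.461 (0.138 to 1.40), and only the interval for replicate 3 included 1.

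edgeR's quasi-likelihood test with Benjamini-Hochberg adjustment called 0 of the 26029 genes kept by its expression filter, and 3023 genes (11.6%) had an unadjusted p under 0.05. OTX2, ZIC2 and NES were among the latter, with unadjusted p of 0.0117, 0.0105 and 0.0190 and adjusted p of 0.362, 0.362 and 0.373 in edgeR. The adjusted p of the other 6 genes ran from 0.441 for SIX3 to 0.791 for LHX2 in the same edgeR fit. limma's voom also called 0 genes, with 2232 (8.58%) under an unadjusted p of 0.05, OTX2, ZIC2 and NES among them. The Wald test of DESeq2 called 253 of 16512 genes (1.53%) and none of the 6 genes of the set to which it gave an adjusted p. SOX1, SIX3 and FABP7 were given no adjusted p there. Without replicate 3, edgeR called 11177 of 25016 genes (44.7%), and 7 of the 9 genes, all but SOX1 and SIX3, were among them. The spread in these fits comes from the labelled knockdown libraries, so each compares 1 library with 3 others and not the conditions. An exact permutation test of 1 library against 3 cannot give a one-sided p below 0.25.

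The paralogues and the divergent gene partners of the ZIC genes were then read beside them. ZIC5 starts 9863 bp from ZIC2 on the other strand and went from 42.7 CPM with the empty vector to 60.1, 59.6 and 65.5 CPM, a mean log2 difference of 0.53 ± 0.08 (SD, n = 3). ZIC4 starts 13438 bp from the GENCODE start of ZIC1 on the other strand and overlaps ZIC1 in that annotation. The RefSeq start of ZIC1, just after the printed window ending at chr3:147409364, lies beyond the ZIC4 start at chr3:147406860. Only from the RefSeq start are ZIC1 and ZIC4 divergent. ZIC4 had 8 counts with the empty vector, against 74, 76 and 2. These were 0.333, 1.19, 1.27 and 0.0640 CPM. ZIC5, like ZIC2, was higher in all 3 replicates, and ZIC4, like ZIC1, in replicates 1 and 2 alone. The strand setting of the counting is not stated, so reads of overlapping genes on opposite strands, such as ZIC4 and ZIC1, may not be separated. Of 93 annotated genes that start within 250 kb of the 9 genes, 21 were tested. Of these, 0 were 2-fold higher, against 3.65% of all tested genes, and 1 was 2-fold lower, against 2.72%. This was CRABP2, a retinoic acid-binding protein gene 28419 bp from NES, which was lower, at 379 CPM with the empty vector, against 147, 157 and 146 CPM. After removal of the length and GC trends its log2 differences were -1.003, -1.003 and -0.61, so it no longer passed in replicate 3.

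Paralogues of the 9 genes numbered 34, of which 16 were tested. In each labelled knockdown library 2 of them were at least 2-fold higher and 1 lower, against 3.65% and 2.72% of all tested genes. The higher ones were LIM-homeobox genes: LHX8 had 0.75 CPM with the empty vector, against 11.1, 12.6 and 3.04 CPM, and LHX4 had 3.04 CPM against 8.46, 8.48 and 11.8 CPM. LHX8, under 1 CPM with the empty vector, was tested only through the libraries in which it was high. The lower one was FABP5, a fatty acid-binding protein gene like FABP7, at 17.4 CPM against 4.10, 5.04 and 6.47 CPM. FABP5 has near-identical pseudogene copies that can share reads. SOX2, the SOXB1 partner of SOX3, stood at 279 CPM with the empty vector, against 299.9, 299.6 and 259 CPM. Of other intermediate filament genes, VIM stood at 536 CPM against 452 ± 61.9 CPM (SD, n = 3), and INA at 127 against 154 ± 16.2 CPM (SD, n = 3). The median log2 difference of the tested paralogues was 0.23.

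Other markers of neural progenitors and radial glia, 20 genes of which 18 were tested, had a median log2 difference of 0.89, against -0.02 over all tested genes. In each labelled knockdown library, 7 were at least 2-fold higher and 1, FABP5, was lower, against 3.65% and 2.72% of all tested genes. TNC, an extracellular matrix protein of radial glia, went from 68.9 CPM with the empty vector to 418, 381 and 293 CPM. PTPRZ1, a receptor phosphatase of radial glia, had 158 CPM against 458, 444 and 533 CPM. NCAM1, the neural cell adhesion molecule, had 4.46 CPM against 15.4 ± 1.40 CPM (SD, n = 3), SOX9, a glial progenitor factor, 4.42 against 14.0 ± 1.52 CPM (SD, n = 3), and CDH2, neural cadherin, 35.4 against 99.4 ± 19.1 CPM (SD, n = 3). GPM6A and CRB2 were the remaining higher genes. PROM1, a stem cell surface protein, and HES1, a Notch target, were higher in all 3 libraries but not 2-fold in each, with mean log2 differences of 0.96 ± 0.12 and 0.74 ± 0.05 (SD, n = 3). VIM and MSI1 had mean log2 differences of -0.25 and 0.14. HES5 had 0 counts in every library. Without replicate 3, 8 of these markers were 2-fold higher, and after trend removal 7 were, with HES1 in place of PTPRZ1.

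Other rostral neuroectoderm factors, 24 genes of which 10 were tested, had a median log2 difference of 0.55. In each labelled knockdown library 3 were at least 2-fold higher and 0 lower, against 3.65% and 2.72% of all tested genes. All 3 had less than 1 CPM in the empty vector library and so were tested through the labelled knockdown libraries alone. PAX6, with 0 counts with the empty vector, gave 957, 784 and 92 counts in replicates 1, 2 and 3. POU3F2, a POU factor of neural progenitors, had 0.916 CPM against 6.81, 5.86 and 2.69 CPM, and NR2F2, a nuclear receptor, 0.916 CPM against 2.96, 2.31 and 7.04 CPM.

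**Figure D4:**
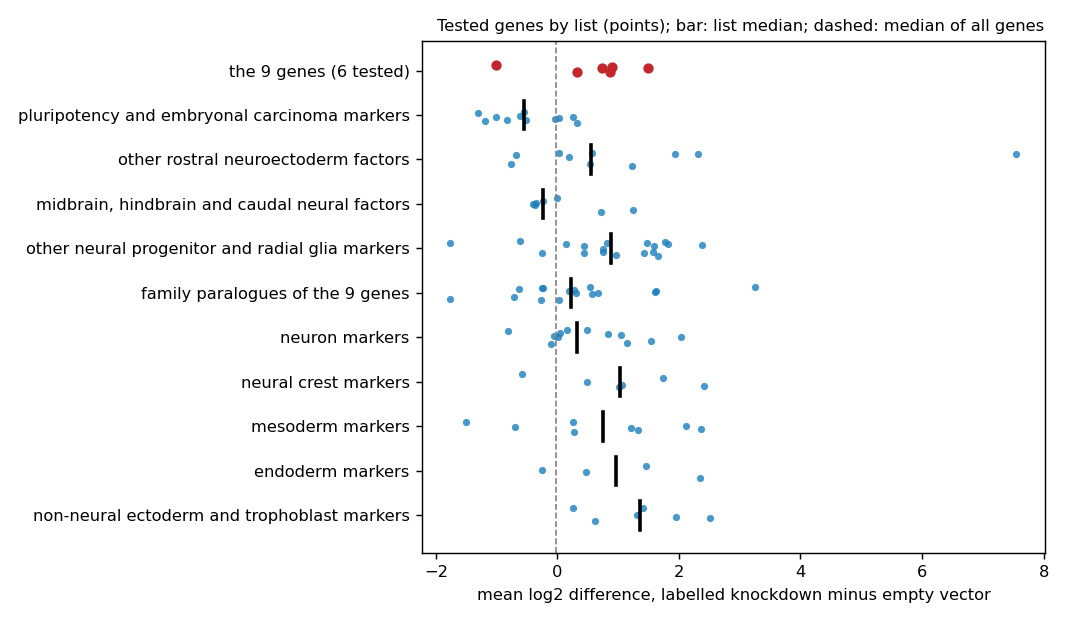
Log2 difference from the control averaged over the 3 labelled knockdown libraries (x axis) for each tested gene of the set (red) and of the comparison lists (blue). Bars are list medians and the dashed line is the median of all tested genes at -0.02. The other progenitor markers have a median of 0.89. The non-neural ectoderm, neural crest and endoderm lists have higher medians, at 1.35, 1.04 and 0.96. Unlike the progenitor list, these lists hold genes that were tested only through the labelled knockdown libraries. Mesoderm markers have a median of 0.74, neuron markers 0.33 and pluripotency markers -0.56.

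Markers of other lineages also differed between the libraries. Median log2 differences were 1.35 for non-neural ectoderm and trophoblast, 1.04 for neural crest and 0.96 for endoderm, each above the 0.89 of the progenitor markers. They were 0.74 for mesoderm and 0.33 for neuron markers. Tested genes with less than 1 CPM in the empty vector library passed the minimum only through the replicates, so these medians are tied to it. Such genes were 3 of 6 in non-neural ectoderm and trophoblast, 1 of 6 in neural crest and 1 of 4 in endoderm. Mesoderm had 1 of 8 and neuron markers 3 of 12, against 0 of 18 progenitor markers. The summed level of 10 neural crest markers was 43.2 CPM with the empty vector, against 80.6 to 142 CPM in the replicates, with 2 of 6 tested at least 2-fold higher in each (TFAP2A and PAX3). PAX3, and GRHL2 of the non-neural ectoderm list, were under 1 CPM with the empty vector and were tested through the replicates alone. The 10 mesoderm markers summed to 40.4 CPM against 80.5 to 130 CPM, with 1 of 8 higher (HAND1). Markers of non-neural ectoderm and trophoblast, 10 genes, summed to 111 CPM against 159 to 234 CPM, with 1 of 6 higher (GRHL2). The 8 endoderm markers summed to 6.96 CPM against 14.8 to 17.7 CPM, with 0 of 4 tested genes 2-fold higher in each and FOXA2, AFP and TTR at 0 in the empty vector library. The 12 neuron markers summed to 170 CPM against 238 and 240 CPM in replicates 1 and 2 and 145 CPM in replicate 3, with 1 of 12 higher (MAP2). The 12 pluripotency markers summed to 6941 CPM with the empty vector, 6866 and 7107 CPM in replicates 1 and 2 and 4024 CPM in replicate 3, with 1 of 11 lower (DNMT3B). The median log2 difference of the 11 tested pluripotency markers was -0.56, with -0.29, -0.17 and -1.14 in replicates 1, 2 and 3. Averaged over the replicates, 3 of the 11 lay above 0. None of the tested genes in these 6 lists passed the 2-fold rule in the opposite direction to that given. Over all tested genes 3.65% were 2-fold higher in each labelled knockdown library and 2.72% were lower. The part of these other lineages in the levels of the 9 genes was not tested.

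The profiles of OTX2, ZIC2 and NES over the 4 libraries were close to one another. With each log2 CPM profile centred on its own mean, the Euclidean distance was 0.145 between ZIC2 and NES, 0.183 between OTX2 and ZIC2 and 0.200 between OTX2 and NES. Many other genes were nearer. Among 13361 other protein-coding genes, NES ranked 99th and OTX2 181st from ZIC2. From NES, ZIC2 ranked 149th and OTX2 290th, and from OTX2, ZIC2 ranked 178th and NES 213th. The 2 genes nearest to OTX2 were ERBIN and ZBTB44 (distances 0.0413 and 0.0421), those nearest to ZIC2 were JMY and ERAP1 (0.0338 and 0.0396), and those nearest to NES were ETV3 and PAN3 (0.0247 and 0.0251). For SOX3 they were VPS45 and ALG1 (0.0104 and 0.0232). For ZIC1 they were LBP and RORB (0.216 and 0.287), and for LHX2 C2orf72 and THEM6 (0.128 and 0.160). ZIC1 and LHX2 lay 4.70 apart, the largest distance among the tested genes of the set. These distances rest on 4 libraries.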

How the data were processed

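RNA depleted of ribosomal RNA was made into strand-specific libraries from 100 ng of total RNA, per the labels' protocols. The authors deposited raw counts per gene, 1 table per library. STAR 2.7.11b, featureCounts 2.0.6, DESeq2 and the builds hg38 and GRCh38 are named in the submitters' processing notes, without roles. The annotation release, strand setting and pair counting are not given in the sources used here. Tables were assigned by the series record.

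Counts were scaled with TMM factors from edgeR 4.0.16 (R 4.3.3) on genes kept by filterByExpr. Between 65.2% and 68.0% of nonzero counts were even, as if the 2 reads of a pair were counted apart. The 95% intervals (exact Poisson, exact binomial) therefore used counts divided by 2, while the floor of 3 counts did not. Intervals and floor cover counting error only. The fold had to be passed in each labelled knockdown library, in the same direction. The edgeR test was adjusted over all genes; DESeq2 1.42.0 and limma 3.58.1 were alternatives. Trend removal used lowess (span 0.3) on the longest GENCODE 29 transcript (58269 of 62696 identifiers matched, without version). RefSeq promoters were matched by symbol for 8 of 9 genes. The rule, the test and trend removal were tested on simulated data.

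The 9 genes, the lists and the alternatives were chosen with earlier results of these data known. Named besides the 9 were list genes past the 2-fold rule (up to 6 a direction) or with a mean of at least 50 CPM, chosen among these for the text, the 2 nearest profiles per gene, neighbours within 250 kb past the rule, and ZIC4 and ZIC5. ZFP42, HES5 and endoderm genes at 0 were named after their values were seen.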

Additional observations from a re-analysis of the deposited data

How the results depend on the processing

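No paired analysis was possible because there is a single control library and its label has no replicate number. The mean log2 differences of the 9 genes were recomputed under 8 alternatives each: of 72 values, 63 moved by less than 1 SD between replicates, 9 moved by more and 0 changed direction. The SD was each gene's own, so ZIC1 at 2.54 and LHX2 at -1.66 without replicate 3 counted among the smaller moves. OTX2, ZIC2 and NES moved by more under total-count scaling and after trend removal. SOX3 did so after trend removal, and SIX3 with prior counts of 0.5 and 5. SIX3 ranged most, from 1.73 to 4.54 with prior counts of 5 and 0.5.

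The number of the 9 genes at least 2-fold higher and lower in each library was 0 and 0. It was 1 and 1 at a mean CPM of 0.1 (SIX3 higher, FABP7 lower) and 1 and 1 for 2-fold in the mean (ZIC1, LHX2). It was 1 higher after trend removal (ZIC2) and 3 higher at 1.5-fold. Leaving out a labelled knockdown replicate gave 0 to 1 higher and 0 to 1 lower, the latter without replicate 3. The 1.5-fold counts, 3 higher and 0 lower, became 3 to 4 higher and 0 to 1 lower on leaving out a replicate, with ZIC1 and LHX2 added without replicate 3. After trend removal SOX3 replaced NES. FABP5 no longer passed after trend removal, leaving 0 lower progenitor markers.

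Over all genes 580 were higher and 432 lower. These became 1605 and 1035 at a mean CPM of 0.1, 1590 and 1526 at 1.5-fold, and 1356 and 1074 for the mean. Trend removal gave 458 and 224, and total-count scaling 734 and 312. Leaving out a replicate gave 615 to 1542 higher and 485 to 846 lower, the largest without replicate 3. edgeR's 0 calls became 253 with DESeq2, and 17 to 11177 on leaving out a replicate. The highest was without replicate 3, where the lone empty vector library is assumed to vary like replicates 1 and 2. The 1.5-fold and list alternatives on other settings were chosen after seeing the data.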

Other observations

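Factors of the midbrain, hindbrain and caudal neural tube, 15 genes of which 7 were tested, had a median log2 difference of -0.23. In each labelled knockdown library 0 were higher and 0 lower by 2-fold, against 3.65% and 2.72% of all tested genes. PAX5 had 218 counts with the empty vector, against 1638, 1454 and 165 in labelled knockdown replicates 1, 2 and 3, and EN1, a midbrain-hindbrain homeobox factor, had 24 against 98, 86 and 197 counts. SOX14, a paralogue of the SOXB group, had 12 counts with the empty vector, 628 and 595 in replicates 1 and 2 and 0 in replicate 3. These counts are not scaled for depth, so they overstate the differences of replicates 1 and 2 from the empty vector library. The empty vector library held 25181737 counts, and replicates 1, 2 and 3 held 62904698, 61627449 and 28552070. PAX5, EN1 and SOX14 were named after their values were seen.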
